A study of Mus musculus with 7 samples.

Results

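RNA polymerase II (Pol II) transcribes the protein-coding genes, and it reaches a promoter with the help of the general transcription factors and of Mediator. The genes described here encode this machinery. They are the protein-coding genes of the GENCODE M21 annotation whose symbols begin with Polr2 and a letter from a to m, with Med and a digit, with Gtf2 and a letter from a to h, or with Taf and a digit, together with Tbp. The rule found 80 genes among 21951 protein-coding genes and used no measured value. Of these 80 genes, 77 had an accessible region within 200 bp of an annotated transcription start site (TSS), and 81 of the 55680 regions of the series lay at their promoters. Polr2b, Taf3, Taf11 and Med24 had 2 such regions each, and the region with the higher mean signal stands for the gene. Taf7l, Taf9b and Gtf2a1l had none. The nearest region lay 63935 bp from a TSS of Taf7l, 31871 bp from one of Taf9b and 27164 bp from one of Gtf2a1l, and 0 regions lay within these 3 genes. Taf7l and Gtf2a1l are known as germ cell counterparts of Taf7 and Gtf2a1.

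Accessible chromatin was mapped in mouse liver by Omni-ATAC-seq, in which a transposase inserts sequencing adapters into exposed DNA. The samples came from healthy male C57BL/6N mice on a standard diet, for which the labels name no treatment or engineered allele, 3 from mice of 3 months (young) and 4 from mice of 18 months (aged). By the design text of the series, 3 aged animals were used and 1 of them gave 2 samples from different lobules, but which samples these are is not stated. The paper counts every aged sample as a biological replicate. If the design text holds, p-values may in part measure the spread within an animal. Nuclei were taken from whole tissue. In such bulk samples, fewer cells of a type and less accessible DNA per cell cannot be told apart. The reads counted in regions summed to between 4474652 and 25461110 per library, young replicate 2 being the deepest and aged replicate 3 the shallowest, and the 77 promoter regions held 24 to 4074 reads each in a library. The promoters of all 6 hepatocyte markers had a region (summed over the list, 531 to 593 normalized reads, scaled to library size as CPM, in young and 661 to 762 in aged samples), while 8 of 20 marker promoters of other liver cell types had one (119.7 to 129.7 CPM in young and 90.6 to 139.9 in aged samples). None of the 4 lymphocyte markers had a region.

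In textbook terms, transcription starts when TFIID, built from the TATA-binding protein (TBP) and its associated factors (TAFs), settles on a core promoter. TFIIA and TFIIB stabilize it there, TFIIF brings in Pol II, and TFIIE and TFIIH follow, the latter opening the DNA. Mediator bridges this complex and the activators bound at enhancers, and a detachable kinase module modulates the contact between Mediator and Pol II.

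The promoters on which the comparison turned are shown as the 200 bases before the RefSeq start site (GRCm38.p6), read 5′ to 3′ along the gene. They are the 5 genes that passed the test, followed by Tbp, which did not. Capitals mark matches, on either strand, to 1 of 10 promoter motifs that are spelled out further on.
Polr2a, chr11:69758634-69758833, minus strand: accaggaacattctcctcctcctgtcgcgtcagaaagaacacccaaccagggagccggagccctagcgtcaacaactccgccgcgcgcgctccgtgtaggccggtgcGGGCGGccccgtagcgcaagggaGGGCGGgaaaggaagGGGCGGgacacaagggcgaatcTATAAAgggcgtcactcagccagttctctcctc
Med11, chr11:70451718-70451917, plus strand: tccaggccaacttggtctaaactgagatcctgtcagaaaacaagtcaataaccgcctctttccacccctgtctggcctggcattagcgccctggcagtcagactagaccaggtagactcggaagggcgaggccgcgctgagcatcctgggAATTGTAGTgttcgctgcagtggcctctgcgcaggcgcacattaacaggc
Med16, chr10:79908939-79909138, minus strand: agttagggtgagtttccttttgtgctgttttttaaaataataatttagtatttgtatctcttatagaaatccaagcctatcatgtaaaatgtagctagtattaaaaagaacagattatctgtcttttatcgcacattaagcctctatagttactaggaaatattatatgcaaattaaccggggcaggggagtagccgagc
Taf15, chr11:83472908-83473107, plus strand: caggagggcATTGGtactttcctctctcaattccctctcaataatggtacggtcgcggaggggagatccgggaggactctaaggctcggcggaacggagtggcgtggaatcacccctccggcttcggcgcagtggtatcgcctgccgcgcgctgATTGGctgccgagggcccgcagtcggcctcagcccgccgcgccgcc
Med12l, chr3:59006778-59006977, plus strand: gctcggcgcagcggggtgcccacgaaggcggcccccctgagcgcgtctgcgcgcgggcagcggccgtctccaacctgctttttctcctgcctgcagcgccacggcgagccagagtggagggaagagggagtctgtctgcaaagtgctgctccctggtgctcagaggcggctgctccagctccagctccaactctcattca
Tbp, chr17:15499688-15499887, plus strand: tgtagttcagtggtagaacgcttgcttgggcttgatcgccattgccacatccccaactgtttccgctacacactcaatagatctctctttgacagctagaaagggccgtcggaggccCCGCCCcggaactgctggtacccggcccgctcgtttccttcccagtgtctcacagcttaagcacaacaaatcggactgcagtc
The Polr2a window held 3 GC boxes, 93, 70 and 55 bases before the start, and a TATA box that began 33 bases before it. The Med11 window had a ZNF143-THAP11 motif on the opposite strand, 50 bases before the start. Taf15 had 2 CCAAT boxes on the opposite strand, 191 and 46 bases before the start, and Tbp a GC box 83 bases before it. The printed bases of Med16 and Med12l held no match. The full windows, which add 50 bases on each side, contained 8 CpG dinucleotides for Med16, 13 for Med11, 17 for Tbp, 29 for Taf15 and 30 for both Polr2a and Med12l.

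To ask whether the accessibility of these promoters differed between ages, aged and young samples were compared across all 55680 regions with edgeR's quasi-likelihood test and Benjamini-Hochberg adjustment, calling a region at an adjusted p under 0.05. A call without a named tool or setting is one of this fit. In aged liver, 4 genes became more accessible with age: Polr2a, which encodes the largest Pol II subunit, the Mediator subunits Med11 and Med16, and Taf15. In turn, 1 gene, Med12l of the Mediator kinase module, became less accessible. The 4 genes make up a share of 77 that is close to the background: 5.02% of the 13037 protein-coding genes with a promoter region were called more accessible and 1.49% less accessible, against 2.44% and 3.3% of all regions. At an unadjusted p under 0.05, 16 members (20.8%) lay above 0 and 7 (9.09%) below, against 27.3% and 7.69% of the protein-coding genes. The log2 fold changes ran from -0.88 to 0.55 with a median of 0.03, and 43 of 77 (55.8%) exceeded 0. For all protein-coding genes the median was 0.13 and the share above 0 was 66.7%. Every aged sample lay above every young one at 19 members (24.7%) and below at 8 (10.4%), where the background was 24% and 7.82%.

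These calls depended on the scaling and on single libraries. DESeq2 called 8 members more and 1 less accessible, and offsets fitted on GC content called 9 and 1. The share of all regions called in either direction went the same way, from 5.74% to 8.42% with DESeq2 and 10.2% with GC offsets. The shares of protein-coding promoters called in the other fits are not given here. With total counts in regions as the scale, which moved the median of all regions from -0.04 to -0.15, none was called more and 3 were called less accessible. Offsets fitted on mean abundance gave 0 and 2, with 23 members above 0 and a median of -0.08. Without young replicate 1 or without aged replicate 3 no member was called, and without young replicate 2 or without aged replicate 1 only the call at Med12l was left. In these 4 fits the share of all regions called fell as well, to between 0.338% and 1.17%. Without young replicate 3, Med11, Taf15 and Med12l were called (4.76% of all regions). Without aged replicate 2, 5 members were called more and 1 less accessible, and without aged replicate 4, 5 and 2 (5.21% and 7.6% of all regions). Summing each pair of aged samples in turn, since 1 such pair comes from 1 animal, gave 0 to 6 members more and 1 to 2 less accessible.

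**Figure D1:**
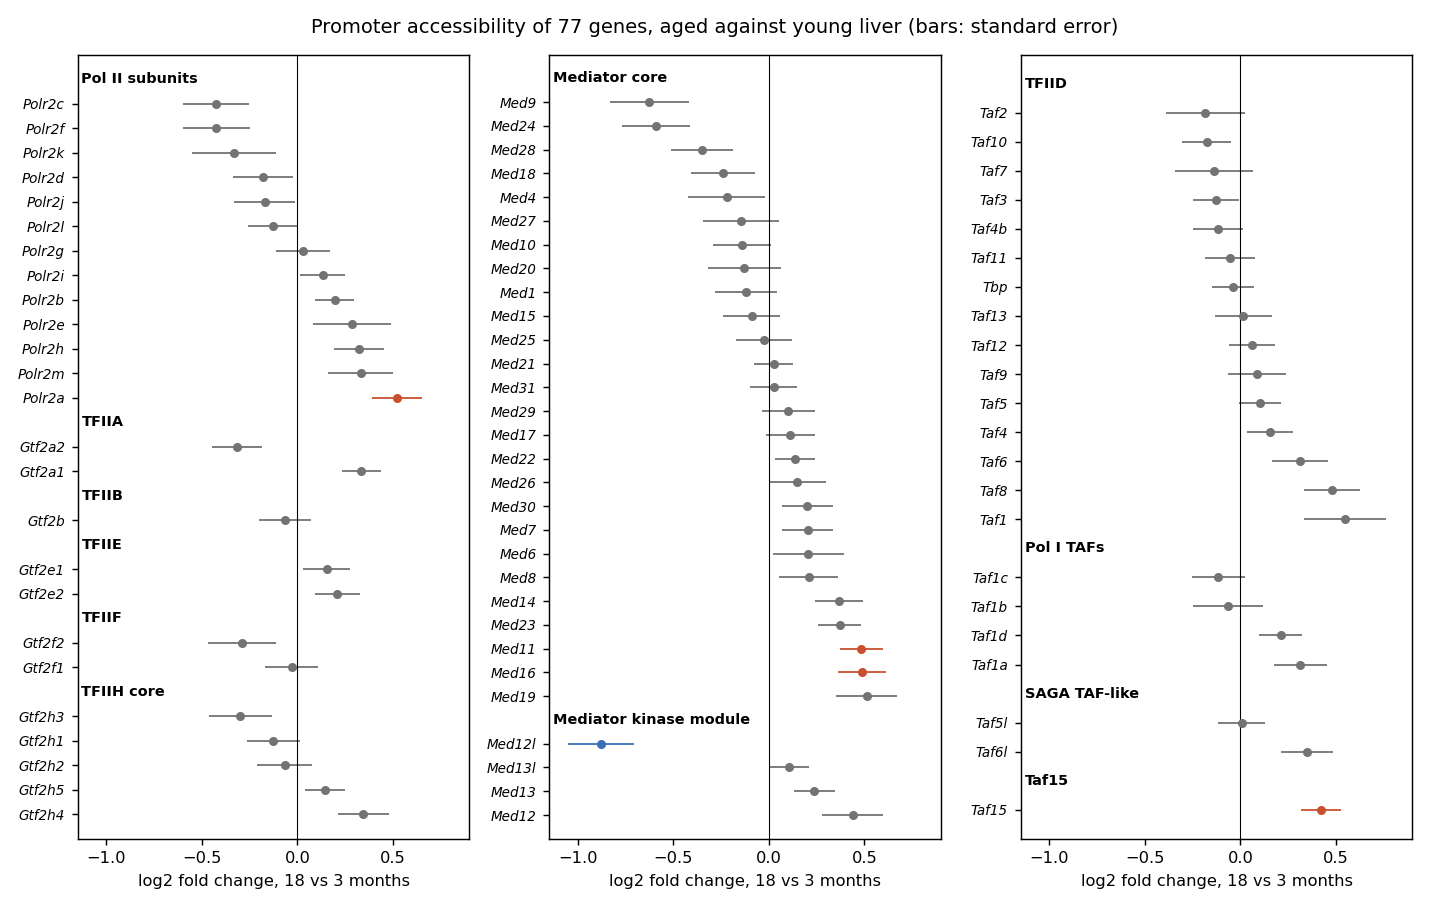
Log2 fold change (18 against 3 months, horizontal axis) of the promoter region of each of 77 genes, grouped by complex and ordered within each group. Bars are standard errors, orange marks the 4 genes called more accessible, blue marks Med12l, and the values run from -0.88 to 0.55 around a median of 0.03.

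The 13 Polr2 genes, which encode the 12 subunits of Pol II and the associated protein Polr2m, all had a promoter region. Of these, 1 was called more accessible, none less, and 7 lay above 0 with a median log2 fold change of 0.03. Polr2a encodes the catalytic subunit whose long C-terminal tail is phosphorylated as transcription proceeds. Its region (chr11:69758044-69759575) measured 88.9, 82.2 and 73.7 CPM in the young replicates and 117, 97.1, 116 and 139 CPM in the aged ones. No aged sample reached down to the young ones, and aged replicate 2 came closest. The mean rose from 81.6 ± 7.62 (SD, n = 3) to 117.1 ± 17.0 CPM (SD, n = 4), and the log2 fold change was 0.52 (SE 0.13, adjusted p = 0.034). Over 24 other settings the change stayed positive (0.19 to 0.60), but the call was kept in 12 of them.

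Polr2b encodes the subunit that forms the other side of the active center. Its region had a log2 fold change of 0.19 (SE 0.10, adjusted p = 0.27) and also spans the promoter of Noa1. Polr2h, one of the subunits that all 3 nuclear RNA polymerases share, had the strongest promoter per length of all members, at 69.6 CPM per kb. Its region (chr16:20715726-20718083), which also covers the promoter of Clcn2, measured 159.95, 154 and 116 CPM in young and 171, 162, 183 and 203 CPM in aged samples. The groups did not overlap, young replicate 3 was the lowest, and the log2 fold change of 0.32 (SE 0.13) missed the threshold (adjusted p = 0.15) and was 0.21 without that sample (adjusted p = 0.32). With offsets on mean abundance the change of Polr2h turned to -0.066. Polr2k, another shared subunit, stood near the bottom with 7.43 CPM per kb. Its region (chr15:36173457-36174435) gave 7.87, 7.71 and 9.21 CPM in young and 6.94, 8.04, 6.07 and 5.09 CPM in aged samples, and the groups overlapped (log2 fold change -0.33, SE 0.22, adjusted p = 0.38).

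The lowest values of the group belonged to Polr2c at -0.43 and Polr2f at -0.42 (adjusted p = 0.15 for each), where every aged sample lay below every young one. Polr2c is part of the assembly platform of the enzyme, together with Polr2j, whose log2 fold change was -0.17. The stalk subunits Polr2d and Polr2g gave -0.18 and 0.03. Polr2i, which contributes to fidelity, and the shared subunit Polr2l were strong promoters of 103.5 ± 12.8 and 109.6 ± 7.51 CPM (SD, n = 3) in young liver, and neither passed the test (0.13 and -0.13). With offsets on mean abundance Polr2l was called less accessible. The shared subunit Polr2e and the Pol II-associated protein Polr2m had 0.29 and 0.33 with adjusted p of 0.41 and 0.24. Genes named here and in the following beyond the 16 chosen by rule were picked after their values were seen.

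Mediator was represented by 30 genes, all with a promoter region. Of the 26 core genes, edgeR called 2 more and none less accessible, 15 lay above 0 and the median was 0.06. DESeq2 and GC offsets added Med19 and Med23 to the genes called more accessible, and GC offsets also Med14. Med11 belongs to the head of the complex, which contacts Pol II. Its region (chr11:70451591-70452515) had 53.7, 55.6 and 44.6 CPM in young and 72.3, 67.5, 72.6 and 75.5 CPM in aged samples. The aged values lay close together and all above the young ones. The means were 51.3 ± 5.90 (SD, n = 3) and 72.0 ± 3.32 CPM (SD, n = 4), and the log2 fold change was 0.48 (SE 0.11, adjusted p = 0.027). Of 24 other settings, 15 kept the call, and the log2 fold change ran from 0.23 to 0.55. Med16 is a subunit of the tail, the part that activators bind. Its region (chr10:79908278-79909745) gave 64.8, 54.5 and 48.2 CPM in young and 77.1, 68.3, 84.3 and 84.3 CPM in aged samples. The gap between the groups was narrow, from 64.8 in young replicate 1 to 68.3 in aged replicate 2. The mean rose from 55.8 ± 8.39 (SD, n = 3) to 78.5 ± 7.60 CPM (SD, n = 4), with a log2 fold change of 0.49 (SE 0.13, adjusted p = 0.040), and 10 of 24 other settings kept the call. Over these settings the change of Med16 ran from 0.22 to 0.61.

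Several core genes had values of similar size and did not pass the test. Med19, a subunit of the middle part, shares its region (chr2:84677714-84678746) with Tmx2 and Gm28635. It measured 45.4, 43.0 and 26.5 CPM in young and 57.7, 49.2, 57.7 and 56.3 CPM in aged samples. Young replicate 3 lay far below the other two, and the log2 fold change of 0.51 (SE 0.16) had an adjusted p of 0.070. Without that sample it was 0.33 (adjusted p = 0.11). Med23, a tail subunit, gave 0.37 (SE 0.11, adjusted p = 0.065), with every aged sample above every young one. Med14, the scaffold that joins head, middle and tail, lies on chromosome X (region chrX:12761329-12762636). It had 41.8, 40.6 and 36.0 CPM in young and 51.8, 42.4, 51.6 and 58.3 CPM in aged samples. Aged replicate 2 barely exceeded young replicate 1, and the log2 fold change was 0.37 (SE 0.13, adjusted p = 0.092). It was called with GC offsets, with aged replicates 2 and 4 summed and without aged replicate 2 (adjusted p from 0.040 to 0.049).

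At the other end stood Med9 and Med24. Med9, of the middle part, had 9.26, 8.84 and 8.39 CPM in young and 6.15, 4.71, 5.60 and 6.24 CPM in aged samples (chr11:59947902-59948716). All aged samples were lower, at a low level, with a log2 fold change of -0.63 (SE 0.21, adjusted p = 0.082). Of the other settings, only total counts in regions called Med9 less accessible (adjusted p = 0.048). The region that stands for the tail subunit Med24 (chr11:98708398-98710948) gave 19.6, 24.5 and 21.5 CPM in young and 13.4, 13.3, 11.9 and 19.1 CPM in aged samples. Aged replicate 4 lay just below the lowest young value, and the log2 fold change of -0.59 (SE 0.18) had an adjusted p of 0.063. It was called less accessible by limma voom, with total counts, with a replicate block, without aged replicate 4 and with aged replicate 4 summed with replicate 1 or 2. This region lies at the start of alternative transcripts. The region at the start of the protein-coding transcripts (chr11:98729196-98729723) gave 0.21 (SE 0.18, adjusted p = 0.52), so that the direction at Med24 depended on the transcript chosen. Med1, the subunit known for its contacts with nuclear receptors, measured 25.3, 20.1 and 22.7 CPM in young and 21.3, 16.1, 20.5 and 24.8 CPM in aged samples (chr11:98192722-98193791). The groups overlapped, and the log2 fold change was -0.12 (SE 0.16, adjusted p = 0.70).

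The kinase module showed the widest spread. Med12 and Med13 and their paralogs Med12l and Med13l link the kinase to the core. Med12l measured 18.8, 15.4 and 20.1 CPM in young and 10.7, 8.83, 9.10 and 10.1 CPM in aged samples (chr3:59005590-59007277). The 2 groups were well apart, with 15.4 CPM as the lowest young and 10.7 CPM as the highest aged value. The mean fell from 18.1 ± 2.42 (SD, n = 3) to 9.68 ± 0.871 CPM (SD, n = 4), and the log2 fold change was -0.88 (SE 0.17, adjusted p = 0.015). The call held in 21 of 24 other settings (adjusted p 0.0024 to 0.074), and its promoter was also among the 3 weakest per length, at 7.87 CPM per kb. Its paralog Med12, on chromosome X (chrX:101273780-101274947), had 20.7, 21.1 and 15.5 CPM in young and 29.2, 22.2, 23.3 and 29.2 CPM in aged samples. These groups did not overlap either, in the opposite direction to Med12l, with a log2 fold change of 0.44 (SE 0.16, adjusted p = 0.11). Med13 gave 0.24 (SE 0.11, adjusted p = 0.19) and Med13l 0.11 (SE 0.11, adjusted p = 0.57). The genes of the kinase itself, Cdk8, its paralog Cdk19 and the cyclin Ccnc, had 0.19, 0.35 and 0.10 (adjusted p = 0.36, 0.057 and 0.71). Cdk19 was called more accessible by DESeq2, by voom, with GC offsets and with aged replicates 2 and 4 summed.

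**Figure D2:**
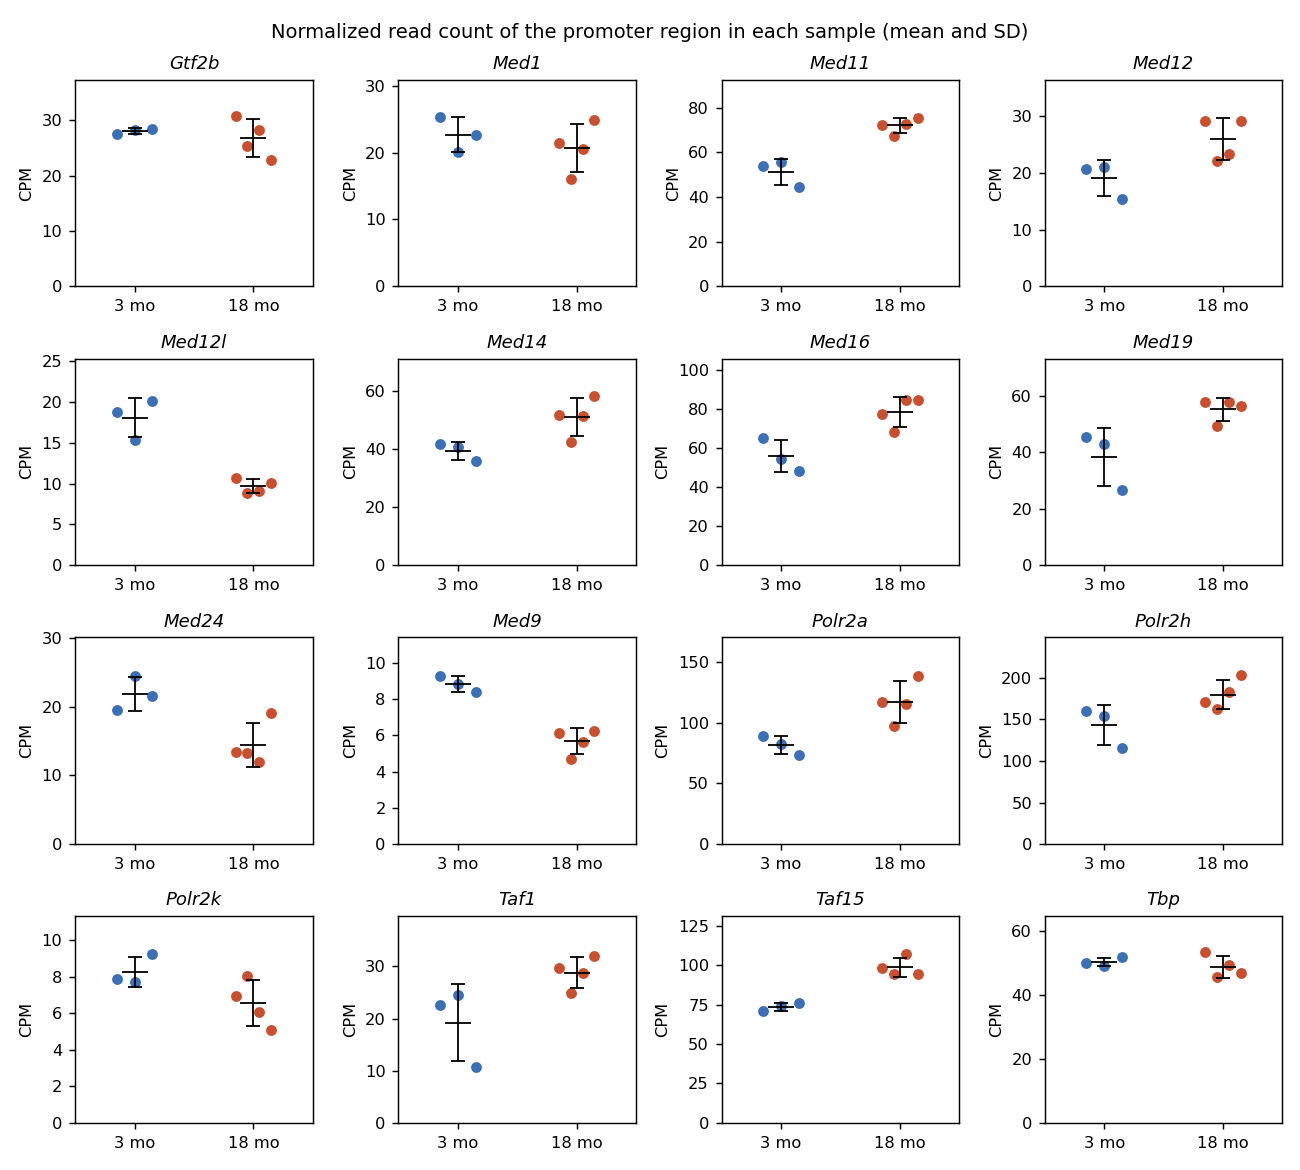
Normalized read count (CPM, vertical axis from 0) of the promoter regions of the 16 genes chosen by rule in each of 3 young (blue) and 4 aged (orange) samples, with the mean and SD in black. At Med12l the aged samples reach 10.7 CPM at most and the young ones 15.4 CPM at least, while the groups overlap at Gtf2b, Med1, Polr2k and Tbp.

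TFIID recognizes the core promoter, and 15 of its 17 genes had a region. None passed edgeR's test, 2 had an unadjusted p under 0.05 and DESeq2 called Taf8, while 8 lay above 0 with a median of 0.01. Tbp, whose product bends the TATA box, measured 50.1, 49.0 and 51.8 CPM in young and 53.4, 45.5, 49.5 and 46.8 CPM in aged samples. Its region (chr17:15497743-15500256) is shared with Psmb1, and the groups overlapped around a log2 fold change of -0.04 (SE 0.11, adjusted p = 0.86), that is from 50.3 ± 1.40 (SD, n = 3) to 48.8 ± 3.49 CPM (SD, n = 4). Taf1, the largest TAF and a scaffold of TFIID, had the highest log2 fold change of all members, 0.55 (SE 0.22), with an adjusted p of 0.14. Its region on chromosome X (chrX:101532418-101533131) gave 22.6, 24.5 and 10.7 CPM in young and 29.7, 24.9, 28.7 and 31.9 CPM in aged samples. Young replicate 3 stood apart from the other young samples, and young replicate 2 nearly met aged replicate 2. Without young replicate 3 the log2 fold change of Taf1 was 0.31 (adjusted p = 0.22), and Polr2a was then the highest member at 0.47. Without aged replicate 4 it was Med19 at 0.51. Taf8, which takes part in the assembly of TFIID, gave 0.48 (SE 0.15, adjusted p = 0.066), from 40.1 ± 8.66 (SD, n = 3) to 56.3 ± 5.85 CPM (SD, n = 4). The other 12 lay between -0.18 (Taf2) and 0.31 (Taf6).

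The other genes named Taf serve different complexes. Taf15 encodes an RNA-binding protein that was found with TFIID. It measured 71.0, 74.0 and 75.8 CPM in young and 98.5, 94.5, 107 and 94.4 CPM in aged samples (chr11:83472382-83474072). The samples of each age lay close together and the groups were separate, from 73.6 ± 2.43 (SD, n = 3) to 98.7 ± 6.09 CPM (SD, n = 4). The log2 fold change was 0.42 (SE 0.10, adjusted p = 0.033), and 12 of 24 other settings kept the call. Over these settings the change of Taf15 ran from 0.12 to 0.45. Taf1a, Taf1b, Taf1c and Taf1d belong to the selectivity factor of RNA polymerase I and gave 0.31, -0.07, -0.12 and 0.21. Taf5l and Taf6l, the forms found in the SAGA coactivator, gave 0.01 and 0.35. None of these 6 was called by edgeR or DESeq2, and Taf1a and Taf6l had an unadjusted p under 0.05.

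Of the 13 genes of TFIIA, TFIIB, TFIIE, TFIIF and TFIIH, 12 had a region and none was called by edgeR. An unadjusted p under 0.05 was found at 3 of them, DESeq2 called Gtf2a1, 5 lay above 0, and the median was -0.05. Gtf2b, the single subunit of TFIIB, which positions Pol II over the start site, measured 27.5, 28.3 and 28.4 CPM in young and 30.7, 25.3, 28.2 and 22.9 CPM in aged samples (chr3:142764754-142765665). The young samples lay within the range of the aged ones, and the log2 fold change was -0.06 (SE 0.14, adjusted p = 0.81). The TFIIA genes lay on opposite sides of 0: Gtf2a1 gave 0.33 (SE 0.10, adjusted p = 0.066), from 94.7 ± 2.38 (SD, n = 3) to 119.4 ± 5.62 CPM (SD, n = 4), and Gtf2a2 gave -0.32 (SE 0.13, adjusted p = 0.15), from 27.7 ± 1.12 (SD, n = 3) to 22.2 ± 2.09 CPM (SD, n = 4). In each case the groups did not overlap. Gtf2e1 and Gtf2e2 of TFIIE lay at 0.15 and 0.21, and Gtf2f1 and Gtf2f2 of TFIIF at -0.03 and -0.29. Among the TFIIH genes the values ran from -0.30 at Gtf2h3 to 0.35 at Gtf2h4 (adjusted p = 0.28 and 0.12).

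Per length of region, the members stretched over a range of levels that the complexes shared. The highest values were 69.6 CPM per kb at Polr2h, 68.2 at Med11 and 66.5 at Polr2a, and the lowest were 6.91 at Med24, 7.43 at Polr2k and 7.87 at Med12l. The value of Med24 belongs to the region of 2551 bp at alternative starts, and the region of 528 bp at the start of its protein-coding transcripts had 20.1 CPM per kb. The median was 23.7 CPM per kb for the members and 25.05 for all protein-coding genes with a promoter region. Their regions had a median length of 1168 bp and a GC content of 57.6%, against 1306 bp and 58.7% for the protein-coding genes.

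**Figure D3:**
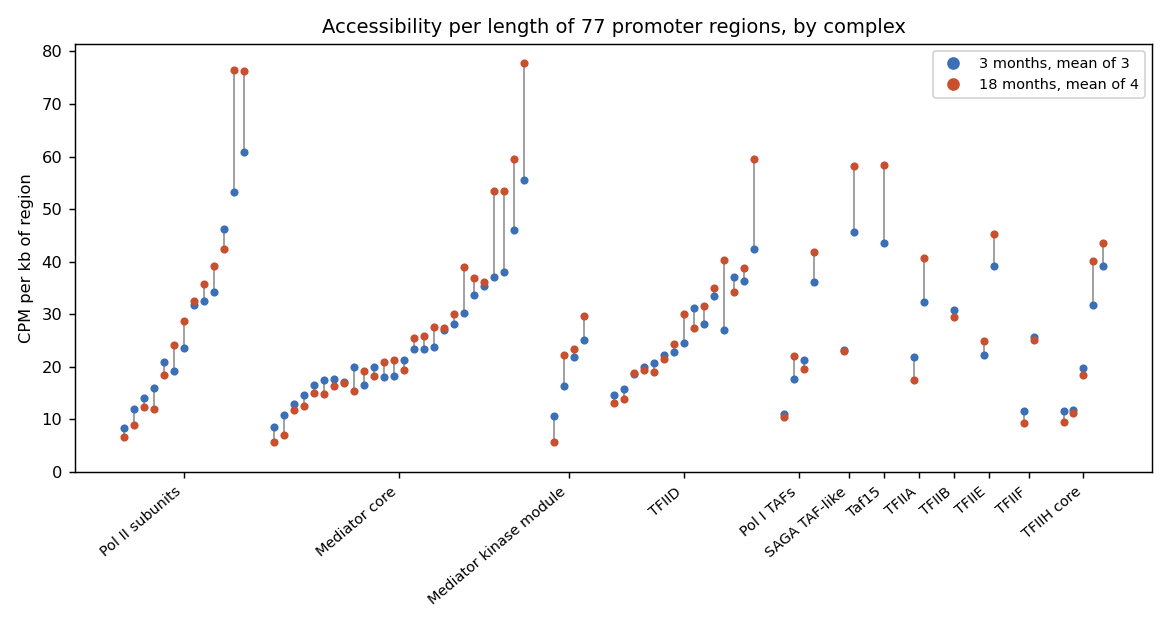
Mean accessibility per length (CPM per kb of region, vertical axis from 0) of 77 promoter regions at 3 months (blue, mean of 3) and 18 months (orange, mean of 4), with 1 vertical line per gene, ordered by level within each complex. Over both ages Polr2h (69.6), Med11 (68.2) and Polr2a (66.5) stand highest.

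The change with age varied with the strength of the promoter. The protein-coding genes were ordered by mean log2 CPM over all 7 samples and divided into 5 groups of equal size, whose median log2 fold changes were -0.32, -0.02, 0.14, 0.23 and 0.32 from the weakest to the strongest. The members followed this order, with medians of -0.29 (10 genes), -0.10 (26), 0.09 (18), 0.17 (16) and 0.33 (7). None of the 10 members in the weakest group lay above 0, among them Med12l, whereas 15 of 16 in the fourth, which holds Med11, and 6 of 7 in the strongest, which holds Polr2a, Med16 and Taf15, did. Across the 77 members, mean log2 CPM and log2 fold change had a Spearman rho of 0.68 and a Pearson r of 0.65, computed from the same 7 libraries, and across the 13037 protein-coding genes rho was 0.70. GC content and length of the region were not ordered with the change (rho 0.03 and 0.09). The offsets on mean abundance were fitted over all regions to take out such a trend, and what was left of it among promoters is not given here. In that fit Polr2a was at 0.19 with an adjusted p of 0.32, while Med12l was still called.

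**Figure D4:**
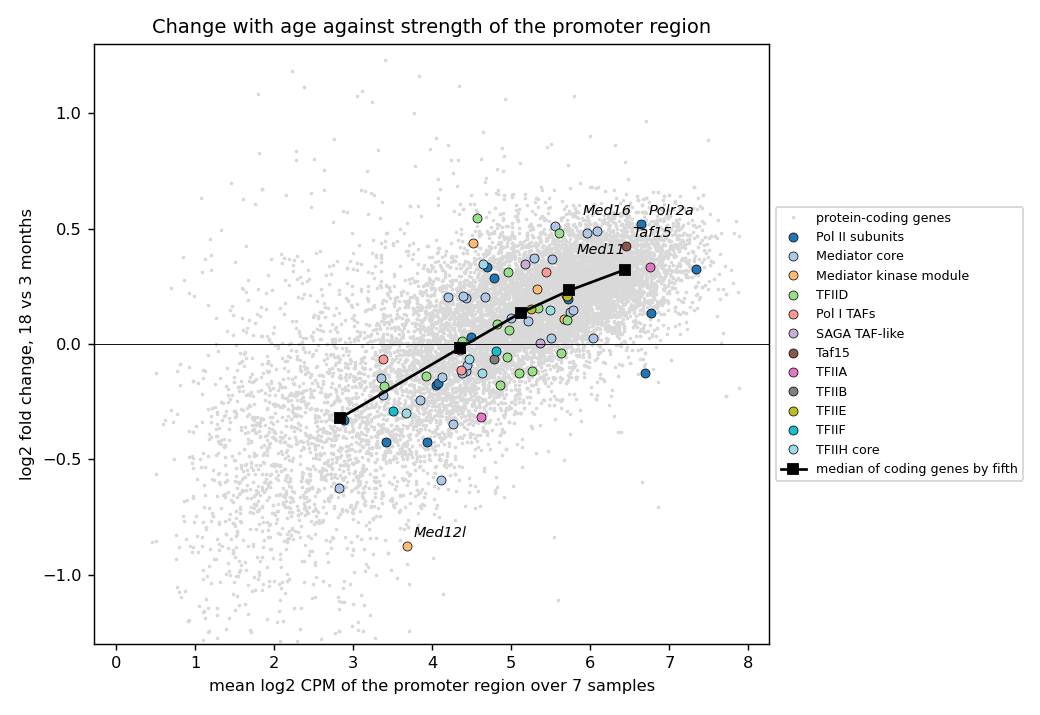
Log2 fold change (18 against 3 months, vertical axis) against mean log2 CPM over 7 samples (horizontal axis) of the promoter regions of 13037 protein-coding genes (gray) and 77 members (colored by complex), 60 genes beyond 1.3 on the vertical axis not being drawn. Black squares join the medians of the 5 groups of strength, from -0.32 to 0.32, and Med12l, at -0.88, lies lowest of the members.

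Averaged over the 77 members, the young samples had a log2 CPM of 4.85 ± 0.07 (SD, n = 3) and the aged ones 4.89 ± 0.08 (SD, n = 4). The lowest young sample was replicate 3 at 4.77 and the lowest aged one replicate 2 at 4.78, and the groups overlapped. Relative to the mean over all protein-coding promoters of the same sample, the members stood at 0.0050 ± 0.026 (SD, n = 3) at 3 months and -0.02 ± 0.04 (SD, n = 4) at 18 months.

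Taf1, Med12 and Med14 are the members on chromosome X that had a region, Taf7l and Taf9b being the others annotated there. All 3 lay above 0 with a median of 0.44, every aged sample exceeded every young one, and all had an unadjusted p under 0.05, but neither this fit nor DESeq2 called any, and of the 3 only Med14 was called in any other setting. Among 353 protein-coding genes of chromosome X, 74.8% lay above 0 with a median of 0.22, 31.7% had every aged sample above every young one, and 32.6% had an unadjusted p under 0.05 above 0. The 22 members whose region also covers the promoter of another protein-coding gene, where the reads cannot be assigned to either gene, had a median of 0.09. EdgeR called none of them, DESeq2 called Med19, and 3 had an unadjusted p under 0.05. They are Polr2b, Polr2f, Polr2h, Polr2i, Polr2l, Med8, Med19, Med20, Med21, Med22, Med29, Tbp, Taf1d, Taf5l, Taf6, Taf9, Taf11, Gtf2e1, Gtf2f1, Gtf2h1, Gtf2h3 and Gtf2h5. The 55 members with a region of their own had a median of 0.03 and held all 5 calls. Their regions were weaker, with a median of the mean log2 CPM of 4.62 against 5.31 for the shared ones. The shares called among shared and unshared regions of all protein-coding genes are not given here, so this split of the calls has no background.

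Inside 22 of the member genes lay 62 further regions at no promoter, 12 of them in Med13l and 7 in Med27. EdgeR called none of them more and 1 less accessible, where 1.66% of the 40258 regions at no promoter were called more and 3.78% less accessible. At an unadjusted p under 0.05, none lay above 0 and 3 (4.84%) lay below, against 7.61% and 14.1%. The median log2 fold change was -0.09, the same as over all regions at no promoter, and 20 (32.3%) lay above 0 against 41.0%. The called region lies in an intron of Med23 (chr10:24911245-24911784), 4623 bp from the TSS of the neighboring gene Arg1, a urea cycle enzyme of hepatocytes. It had 11.8, 12.5 and 9.37 CPM in young and 2.64, 5.10, 7.24 and 4.45 CPM in aged samples. The groups did not overlap, and the log2 fold change was -1.30 (SE 0.28, adjusted p = 0.020), whereas the promoter of Med23 lay at 0.37. None of the second promoter regions of Polr2b, Taf3, Taf11 and Med24 was called.

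Genes that work with this machinery were examined for comparison. Of 20 partners (further TFIIH subunits, the Mediator kinase, regulators of TBP, elongation factors of the TFIIS type and enzymes acting on the Pol II tail), 1 was called more and none less accessible, 14 (70%) lay above 0 and the median was 0.14. This was close to the protein-coding genes, with 5.02% called more accessible, 66.7% above 0 and a median of 0.13. The called gene was Tbpl1, a relative of Tbp, which went from 46.2 ± 4.08 (SD, n = 3) to 61.4 ± 3.87 CPM (SD, n = 4) with a log2 fold change of 0.41 (SE 0.11, adjusted p = 0.046). Leaving out young replicate 1, 2 or 3, or aged replicate 1, 3 or 4, left no partner called, whereas DESeq2 called Cdk19, Ctdsp1 and Tcea1 as well. Of 30 genes of RNA polymerases I and III, edgeR called none and DESeq2 called Brf1 and Polr3gl more accessible, 9 (30%) had an unadjusted p under 0.05, all above 0, and 21 (70%) lay above 0 with a median of 0.09, against 27.3% and 66.7% of the protein-coding genes. The lowest adjusted p there was 0.051 at Polr3gl (0.47, SE 0.13). Of the cell type markers, 6 of 6 hepatocyte genes lay above 0 with 1 call (Apoa1), and 1 of 8 marker promoters of other cell types lay above 0 with a median of -0.43 and no call. The part of cell composition in the changes at the members was not tested.

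Motif letters were searched on both strands of the RefSeq windows, from 250 bases before to 50 after each start. The table held 69 of the 77 members, and 66 of their windows overlapped the region. The motifs were the TATA box (TATAAA), the GC box (GGGCGG), the CCAAT box (CCAAT), the ETS motif (CCGGAAG), the NRF1 motif (GCGCATGC), the YY1 motif (AAGATGGCG), the cAMP response element (CRE, TGACGTCA), the E-box (CACGTG), the ZNF143-THAP11 motif (ACTACAATT) and the BANP motif (CTCGCGAG). A match is a description of the letters and not of a bound factor. GC boxes stood in 68.2% of the member windows and in 68.3% of 9445 windows of protein-coding genes, and CCAAT boxes in 36.4% and 38.9%. The ETS letters stood in 33.3% and 19.3%, those of NRF1 in 12.1% and 5.78%, of YY1 in 7.58% and 3.5%, of the E-box in 16.7% and 10.6%, and of the CRE in 3.03% and 3.24%. Matches to TATAAA anywhere in the window were found in 9 members (13.6% against 6.09%), but on the sense strand 25 to 35 bases before the start, a distance chosen after the matches were seen, only Polr2a and Taf13 had one (3.03% against 1.01%). The ZNF143-THAP11 letters occurred in Med11 and Gtf2h4 (3.03% against 0.847%), and the BANP letters in no member against 2.06%.

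**Figure D5:**
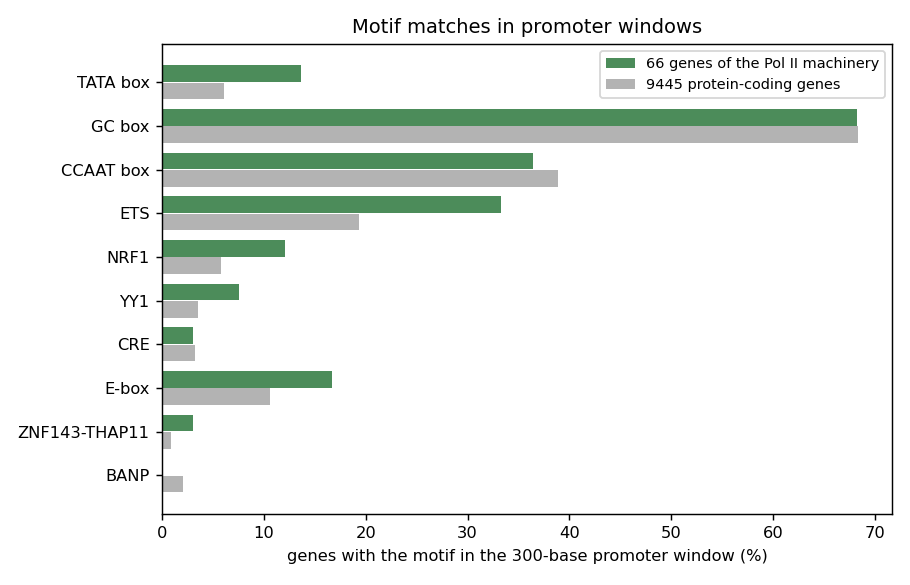
Share of promoter windows (percent, horizontal axis from 0) that hold each of 10 motifs, for 66 member genes (green) and 9445 protein-coding genes (gray). GC boxes are equally frequent (68.2% and 68.3%), and the ETS letters stand in 33.3% of the member windows against 19.3%.

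The members with the ETS letters had a median log2 fold change of -0.07 and those without it 0.13, and the members with and without a GC box had 0.10 and -0.03. These medians come from overlapping sets of the same 66 genes and were not tested. The median number of CpG dinucleotides per window was 23.5 for the members, from 4 in Polr2m to 61 in Med13l, and 22 for the protein-coding genes.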

How the data were processed

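Omni-ATAC-seq of liver from 3 young and 4 aged samples was analysed. The authors deposited raw counts, the reads of each library in 55680 consensus regions, without normalization. Per the labels and the methods of the study, the reads were trimmed (cutadapt 1.13), aligned to GRCm38 (Bowtie2 2.4.1), and cleared of duplicates and mitochondrial reads, peaks were called per library (MACS2 2.2.7), and reads were counted (featureCounts) wherever 2 or more libraries had a peak. Removing duplicates leaves position-based, not molecular, counts. All 7 columns were mapped by the sample descriptions, and 0 were left over.

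Counts were fitted with edgeR 4.0.16 (R 4.3.3; TMM normalization, quasi-likelihood test, no factor other than age) and adjusted over all regions by the Benjamini-Hochberg method at 0.05. The SE given with a log2 fold change was derived from this test, as the absolute log2 fold change divided by the square root of the F statistic. Log2 CPM used a prior count of 2. On simulated data with 200 regions changed 3-fold among 55680, 94% were recovered and 6% of 200 calls were false. The changed regions were taken from the better covered ones, and the libraries were drawn independently. The members changed by less than 3-fold (log2 fold changes of -0.88 to 0.55), so the 94% does not give the power for changes of their size. Pairs of libraries of the same age differed by more than sampling noise (chi-square per degree of freedom 2.47 to 6.10). Regions were assigned with GENCODE M21 (pandas 2.3.3 and numpy 2.4.6 in Python 3.11.15; figures with matplotlib 3.10.9).

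The members and lists were chosen with earlier results of these data known. Genes named by rule were those called, the 3 highest and 3 lowest by log2 fold change and by CPM per kb, and Polr2a, Tbp, Gtf2b, Taf1, Med1, Med14 and Med12. The 24 alternatives included DESeq2 1.42.0, limma 3.58.1 (voom), other scalings and filters, each sample left out, each pair of aged samples summed and a replicate block. Other assays of the study were not analysed here.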

Additional observations from a re-analysis of the deposited data

Results flagged for a closer look

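In 17 sets of 4 aged samples (the 16 genes chosen by rule and the mean over the members), the distance of an extreme sample from its nearest neighbor was set against the whole range of the set. At Med19, aged replicate 2 had a log2 CPM of 5.63, its nearest neighbor 5.82 and the highest sample 5.86, which gives a ratio of 0.838, above the 95% limit of Dixon's test for 4 samples. Chance alone passes this limit in about 1 of 20 sets, and 1 of the 17 passed it here. Leaving out this sample did not bring Med19 past the threshold.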

How the results depend on the processing

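Of 384 values (16 genes under 24 alternatives), 317 kept direction and side of the threshold, 50 lost the call, 12 gained one and 5 reversed. Against 4 members called more accessible, DESeq2 called 8, GC offsets 9, summing aged replicates 2 and 3 gave 2 and summing 3 and 4 gave 1. Summing 1 and 3, 10 counts in every sample, offsets on mean abundance, total counts and a threshold of 0.01 each gave 0. Leaving out 1 sample gave 0 to 5. Against 1 called less accessible, summing aged 1 and 4 or 2 and 4, voom and abundance offsets gave 2, total counts 3, the threshold of 0.01 gave 0, and leaving out 1 sample 0 to 2. Abundance offsets left 23 of 77 members above 0 with a median of -0.084, and total counts gave a median of -0.089. Against 1 partner, DESeq2 and GC offsets called 4, voom and summing aged 2 and 4 called 3, leaving out 1 sample 0 to 2, and the other sums, 10 counts, abundance offsets, total counts and 0.01 called 0. Against 0 genes of RNA polymerases I and III, DESeq2 called 2, GC offsets 3, and voom and the sum of aged 2 and 4 called 1. The reversed values were Tbp at 0.074 (GC offsets), Polr2h at -0.066 (abundance offsets), Med24 at 0.21 (protein-coding transcripts) and Gtf2b at 0.0015 (block) and 0.016 (without aged replicate 4, range -0.15 to 0.016). Same-numbered samples did not deviate together more than others (correlations -0.12, 0.06 and 0.03, against -0.15 to 0.23 for differently numbered ones). These values gave no sign that the numbers pair the samples, and a batch shared by number was not tested. With a replicate block, 1 member was called more and 2 less accessible, and 0 partners. The cause of these shifts was not tested. The shallowest library held 4474652 reads.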
